A study of Mus musculus with 6 samples.

Results

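The cytosolic ribosomal protein genes were compared between wild-type (WT) mouse embryonic stem cells (mESCs) and mESCs with a knockout (KO) of *Patz1*, which encodes a zinc finger DNA-binding protein. Members were the gene symbols made of *Rpl* or *Rps* and a number, with or without a closing a or x and a further digit. *Rplp0*, *Rplp1*, *Rplp2* and *Rpsa* were added. Symbols with another ending, such as *Rpl39l*, were not members. Pseudogene symbols, *Rpl10l* and the *Rps6k* kinases were left out. This gave 77 members among 23420 gene symbols, of which 31 encode proteins of the small subunit and 46 proteins of the large subunit. On the mouse genome build GRCm38, 7 members lie on chromosome 11, 4 on X and 66 on other autosomes. The mESCs were E14 cells, an established male line, grown in both groups with LIF and with inhibitors of MEK and GSK3. The WT group had 3 RNA-seq libraries and the KO group had 3, made from total RNA depleted of ribosomal RNA. The KO was made with a CRISPR guide against *Patz1*. The design text counts WT and KO as 1 line each, while the methods speak of several KO lines, and which of them gave the libraries was not given in the sources used here. Were it 1 line, the loss of *Patz1* and other properties of that line could not be told apart. The libraries of a group are described as biological replicates, and the labels do not say what separated them.

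The cytosolic ribosome is made of a small subunit, which reads the mRNA, and a large subunit, which joins the amino acids. Each carries its proteins in a single copy, except for the acidic proteins of the stalk, and cells match the supply of the proteins to each other and to ribosomal RNA. The genes are transcribed at high levels in dividing cells, and their mRNAs start with a stretch of pyrimidines, the TOP element, through which growth signals control their translation. RNA-seq counts measure the mRNAs and not this translational control.

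The deposited counts summed to between 37573923 and 47721070 per library in replicates 1 and 2 and to 11040756 (WT) and 11420268 (KO) in replicate 3. Abundant structural RNAs took 23.2% and 20.1% of the counts in the replicate 3 libraries of WT and KO, and between 6.12% and 9.05% in the others. *Patz1* was at 1838, 1983 and 1843 normalized counts in WT and at 853, 862 and 862 in KO, where a normalized count is a count divided by the DESeq2 size factor of its library. *Patz1* fell in KO, by 1.14 on the log2 scale (SE 0.10, DESeq2 adjusted p = 1.58e-26), which goes with the labels. *Patz1* itself lies on chromosome 11 (chr11:3288874-3309083, plus strand), where the median over all genes was -0.26 on the log2 scale, and with that chromosome centred within each library the value of *Patz1* was -0.87 (DESeq2 adjusted p = 1.57e-13). All 8 stem cell markers examined had a mean of at least 50 normalized counts, while none of the 6 primitive endoderm markers and none of the 6 fibroblast markers did. Of 6 trophoblast markers 3 did, and of 6 neural markers 2.

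Transcription start regions from RefSeq were matched for 57 of the 77 members. In the window from 30 bases before the start to 20 bases from it, 50.9% of the matched members held a run of at least 8 bases of C or T on the sense strand, against 22.9% of all 27025 genes of the table. A gene with several annotated starts counted if any of them held such a run. Which start these cells use was not tested. The sequences below are, for each gene, the window with the longest pyrimidine run among its annotated starts, with that run in capitals. They are given for 4 members of chromosome 11 and 2 of X described further on, for *Rplp0* and for the paralogue *Rpl39l*. The windows of *Rps27a* and *Rpl23a*, also on chromosome 11, were not analysed here. On build GRCm38.p6 they lie at chr11:98026894-98026943 (*Rpl19*, plus strand), chr11:97782420-97782469 (*Rpl23*, minus), chr11:101442215-101442264 (*Rpl27*, plus), chr11:114668550-114668599 (*Rpl38*, plus), chrX:102189372-102189421 (*Rps4x*, minus), chrX:134585624-134585673 (*Rpl36a*, plus), chr5:115559437-115559486 (*Rplp0*, plus) and chr16:10170198-10170247 (*Rpl39l*, plus).
*Rpl19*: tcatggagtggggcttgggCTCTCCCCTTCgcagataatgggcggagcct
*Rpl23*: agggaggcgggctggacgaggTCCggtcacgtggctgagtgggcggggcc
*Rpl27*: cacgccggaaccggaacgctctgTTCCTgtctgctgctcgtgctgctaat
*Rpl38*: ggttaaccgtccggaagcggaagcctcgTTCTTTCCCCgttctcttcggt
*Rps4x*: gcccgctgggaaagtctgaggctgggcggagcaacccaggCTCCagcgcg
*Rpl36a*: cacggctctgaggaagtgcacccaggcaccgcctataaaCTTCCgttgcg
*Rplp0*: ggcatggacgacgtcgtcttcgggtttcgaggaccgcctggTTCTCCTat
*Rpl39l*: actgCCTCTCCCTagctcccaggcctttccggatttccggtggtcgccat

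The longest run measured 11 bases in *Rpl19* and 10 in *Rpl38*, but 3 in *Rpl23* and 5 in *Rpl27*, so these 4 members did not share a long run. The run of *Rpl19* lay before the start base, outside an mRNA that begins there. The runs in *Rps4x* and *Rpl36a*, both on X, measured 4 and 5 bases. The G-rich word GGGAGGG, on either strand of the longer stretch from 250 bases before to 50 bases after the start, was present in 10.5% of the matched members and in 23.8% of all genes, and among the 5 matched members of chromosome 11 only *Rpl23* held it. The word GGGCGGG, a core of the sites bound by Sp1, was present in 45.6% of the matched members and in 27.9% of all genes. As with the runs, a gene counted if any of its annotated starts held the word.

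The members together took a large and similar part of the RNA in both genotypes. Their share of all counts was 12.2%, 11.2% and 9.40% in the WT libraries, in replicate order, against 11.5%, 11.9% and 10.1% for KO. The means were 10.9% ± 1.41 (SD, n = 3) in WT and 11.2% ± 0.917 (SD, n = 3) in KO, and the ranges overlapped. With the structural RNAs left out of the total, the shares were 12.5% ± 0.390 in WT and 12.7% ± 0.320 in KO (SD, n = 3). Small subunit members took 4.71% ± 0.579 of the counts of WT libraries (SD, n = 3) and 4.90% ± 0.338 of those of KO libraries, and large subunit members took 6.23% ± 0.832 and 6.27% ± 0.579. In the plot of shares the total overlaps between genotypes, while the parts taken by chromosome 11 and distal X members do not.

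**Figure D1:**
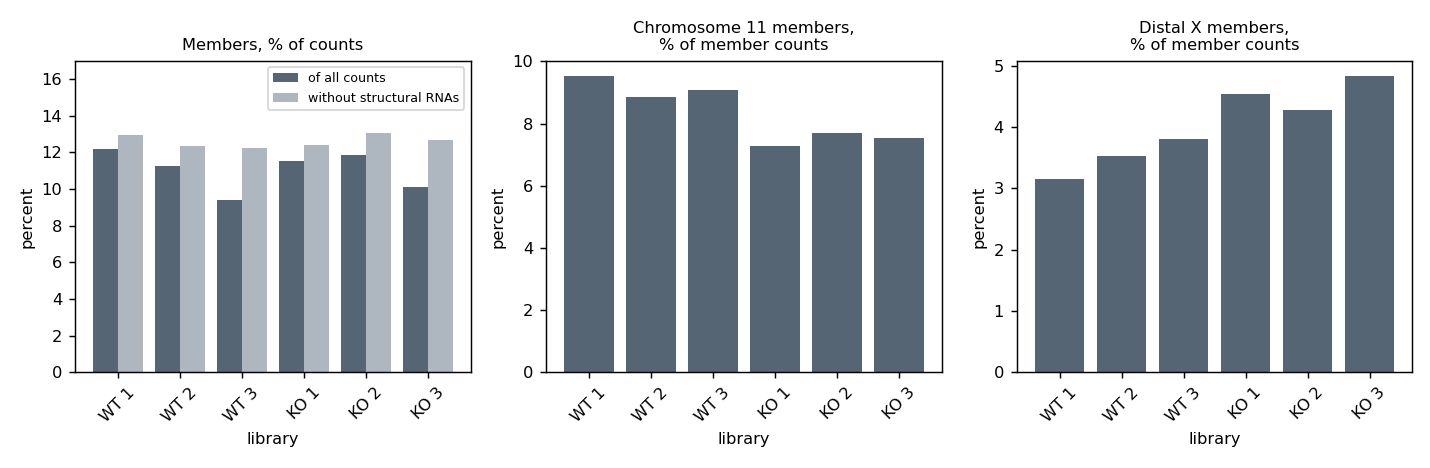
Share of counts per library, in percent. The left panel gives all members as a share of all counts (dark) and of counts without the abundant structural RNAs (light), with the libraries of both genotypes overlapping. The middle panel gives the chromosome 11 members as a share of member counts, at 8.86% or more in each WT library and at 7.69% or less in each KO library. The right panel gives *Rps4x* and *Rpl36a*, on distal X, as a share of member counts, at 3.80% or less in WT and at 4.28% or more in KO.

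Among members, levels were compared per kilobase of the main annotated transcript, the shortest where several ranked alike. The order thus depends on the length chosen as well as on the counts, and that of *Rps28* was 271 bases. The highest level in WT was that of *Rps28*, a small subunit protein, at 150150 ± 21066 normalized counts per kilobase (SD, n = 3). *Rps29* followed at 144606 ± 19286 and *Rpl41*, the shortest protein of the large subunit, at 139760 ± 8503, and these 3 did not differ beyond their spread. *Rps18* stood at 120912 ± 7237 and *Rps12* at 102300 ± 6685 per kilobase, both proteins of the small subunit. The KO levels of the same members were 159918 ± 8931 (*Rps28*), 151562 ± 12718 (*Rps29*), 145391 ± 5446 (*Rpl41*), 128253 ± 7085 (*Rps18*) and 106549 ± 3193 (*Rps12*) per kilobase, in the same order. Over the 73 members with a mean of at least 10000 normalized counts, the WT level ranged from 12275 per kilobase for *Rps20*, whose main transcript is annotated with 3706 bases, to that of *Rps28*, with a median of 53473.

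The remaining 4 members stood far below the rest in every library. *Rpl26*, a large subunit protein encoded on chromosome 11, had 0 counts in all 6 libraries, where 3 counts correspond to between 1.69 and 8.21 normalized counts. *Rpl30* lay between 9.72 and 18.1 normalized counts, *Rpl34* between 13.2 and 32.2, and *Rps27* between 73.8 and 101. The others of these 77 genes averaged between 12744 and 81302 normalized counts. Of the 50-base stretches of the main transcript, 98.6% for *Rps27*, 76.4% for *Rpl30*, 71.3% for *Rpl26* and 50.6% for *Rpl34* were also found in another annotated gene, but so were 92.1% for *Rpl10*, which was counted at 40924 or more in each library. Whether reads of these 4 members were assigned elsewhere was not tested, so their values may not reflect their mRNA levels. *Rps27* still enters the medians and counts below that use a mean of at least 50. *Rpl30*, *Rpl34* and *Rps27* enter the counts of tested members.

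At an adjusted p under 0.05, 3 of the 76 members with a test differed between KO and WT. *Rps27a* fell in KO, while *Rpl36a* and *Rps4x* rose. Across all 15309 genes tested, 7.49% passed the same threshold, 4.78% lower and 2.7% higher in KO, and 3 of 76 is a lower share than that. The median log2 fold change of KO over WT, over the 74 members with a mean of at least 50, was 0.07, against 0.02 over the 11524 such genes of all kinds. Of these 74 members, 69 had a 95% confidence interval of the fold change that lay within 1.5-fold in either direction. WT and KO libraries were fully apart for 2 members lower in KO (*Rpl23* and *Rps27a*) and for 5 higher in KO (*Rpl12*, *Rpl36a*, *Rplp0*, *Rps13* and *Rps4x*), while 13.8% of all genes tested did not overlap in the lower and 11.8% in the higher direction. Members on chromosome 11 took the low end of the order of fold changes together with *Rpl39*, and those on distal X the high end, as the plot of all members shows.

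**Figure D2:**
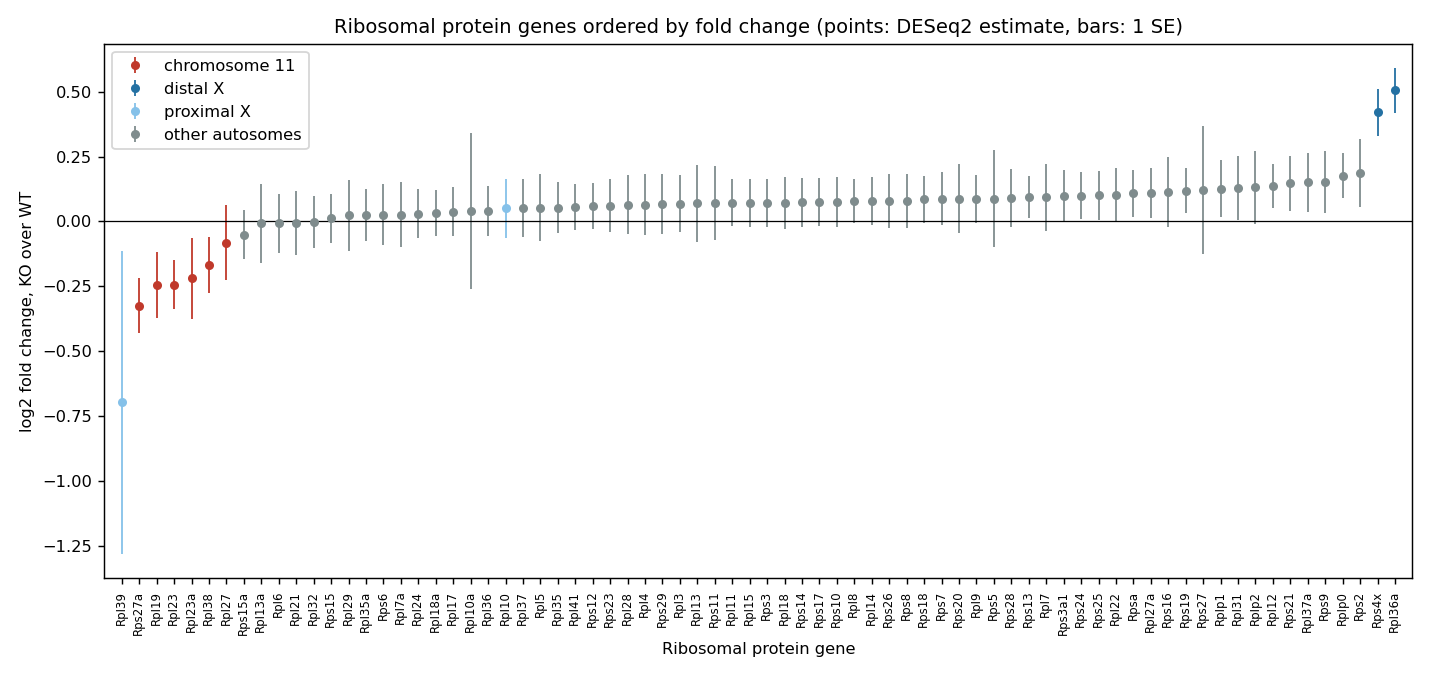
Log2 fold change of KO over WT for the 74 members with a mean of at least 50 normalized counts, ordered by size. Points are DESeq2 estimates and bars 1 SE, and colours give the location. The chromosome 11 members lie between -0.32 and -0.08, *Rps4x* and *Rpl36a* at 0.42 and 0.50, and the members on other autosomes between -0.05 and 0.19.

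Replicate numbers were taken to pair the libraries, though the labels do not say so. With the number as a block, DESeq2 called 7 members in place of 3. Of all 14567 genes then tested, 14.6% were called, 7.95% lower and 6.68% higher. *Rpl19* and *Rpl23* were then lower in KO, and *Rpl36a*, *Rps4x*, *Rplp0*, *Rps2* and *Rps9* higher, while *Rps27a* missed the threshold.

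On chromosome 11 the 6 measured members all had lower means in KO. *Rps27a* encodes a fusion of ubiquitin with a small subunit protein, from which ubiquitin is cleaved (chr11:29545846-29548109, minus strand). It was at 60931, 49762 and 56936 normalized counts in WT and at 41236, 44161 and 48509 in KO. Every KO library was below every WT library, with the nearest values 49762 and 48509. The log2 fold change, with a KO mean at 79.9% of WT, was -0.32 (SE 0.11, DESeq2 adjusted p = 0.0371). The call depended on the method and on single libraries. The adjusted p was 0.105 by edgeR, 0.0708 by limma-voom and 0.0684 with the replicate block, and without WT replicate 1, WT replicate 3, KO replicate 1 or KO replicate 2 it was 0.314, 0.0628, 0.336 or 0.205. Over the 15 alternative fits it ranged from 0.00426 to 0.917, with 7 under 0.05.

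*Rpl23* encodes a protein on the face of the large subunit that meets the small subunit (chr11:97777527-97782437, minus strand). It was at 56000, 49208 and 47273 normalized counts in WT and at 42079, 44380 and 42362 in KO. The groups did not overlap, and the KO mean reached 84.5% of that in WT. With an SE of 0.10, the log2 fold change of -0.24 had a DESeq2 adjusted p of 0.105, and the adjusted p was 0.00117 with the replicate block and between 0.00117 and 0.956 over all alternatives.

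*Rpl19*, a large subunit protein with a helix that reaches across to the small subunit, was at 62892, 57729 and 46367 in WT and at 48808, 50786 and 41228 in KO (chr11:98026710-98030492, plus strand). The groups overlapped, but the KO library was lower than the WT library of the same number in each of the 3 pairs. Its log2 fold change was -0.25 (SE 0.13), with a DESeq2 adjusted p of 0.299 without and 2.75e-04 with the replicate block, and between 2.75e-04 and 0.966 over all alternatives. Without WT replicate 3 the adjusted p was 0.0156 for *Rpl19* and 0.0242 for *Rpl23*.

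The other 3 measured members of chromosome 11 missed the threshold in every fit. *Rpl23a*, a protein at the exit of the peptide tunnel (chr11:78180932-78183584, minus strand), was at 62338, 51585 and 40653 in WT and at 45836, 51036 and 35943 in KO (log2 fold change -0.22, SE 0.16). *Rpl38*, which has been linked to translation of *Hox* mRNAs (chr11:114668524-114672331, plus strand), was at 32646, 28784 and 30546 in WT and at 24006, 27383 and 30507 in KO (log2 fold change -0.17, SE 0.11). The groups overlapped for both, and each KO library was lower than the WT library of its number. *Rpl27*, a large subunit protein (chr11:101442298-101445529, plus strand), was at 32545, 27250 and 35938 in WT and at 23736, 35196 and 31477 in KO (log2 fold change -0.08, SE 0.14). KO replicate 2 was higher than 2 of the WT libraries here, and the fold change turned to 0.01 without WT replicate 3 and to 0.06 without KO replicate 1.

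**Figure D3:**
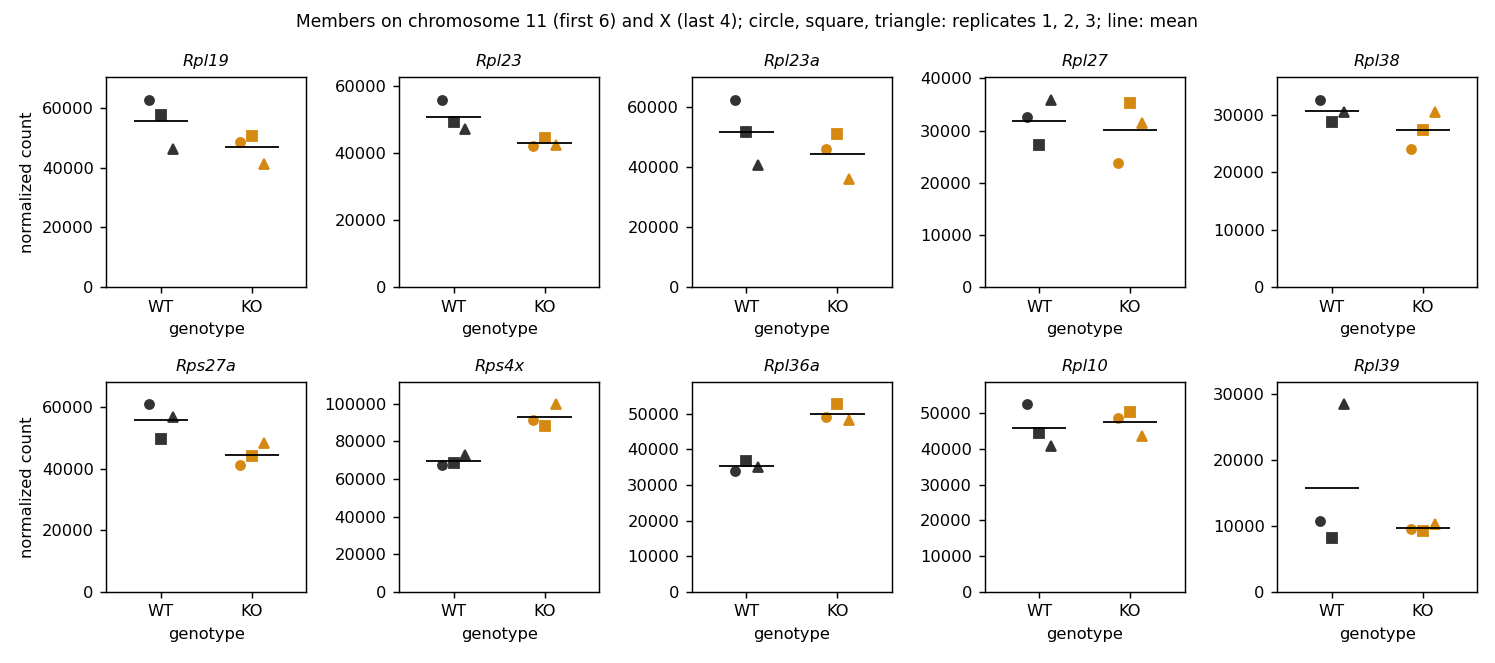
Normalized counts of the measured members on chromosome 11 (first 6 panels) and on X (last 4) in each library of WT and KO. Circles, squares and triangles are replicates 1, 2 and 3, lines are means, and axes start at 0. The genotypes are apart in *Rpl23*, *Rps27a*, *Rps4x* and *Rpl36a*, and WT replicate 3 of *Rpl39* stands alone at 28402 normalized counts.

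The chromosome 11 members were then set against the members on other chromosomes. Their median log2 fold change was -0.23 (6 members), and that of the members elsewhere was 0.07 (68 members), a difference of -0.31. Within the pairs of equal replicate number, the difference of the medians was -0.39, -0.26 and -0.29, so it had 1 direction in all 3. The chromosome 11 members made up 9.54%, 8.86% and 9.07% of all member counts in WT and 7.27%, 7.69% and 7.52% in KO. The KO share was lower in every library, at 7.50% ± 0.210 against 9.16% ± 0.346 (SD, n = 3).

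Values over the whole chromosome stand beside these. Over all 960 genes of chromosome 11 with a mean of at least 50, the median log2 fold change was -0.26 and 90.7% had a negative value, against a median of 0.03 over 10072 genes of the other autosomes. Of the genes tested on chromosome 11, 20.2% fell in KO, and 1 of the 6 members did. With the replicate block 39.0% did, and 2 of the 6 members. The genotypes were apart with lower KO values in 44.4% of these genes and in 2 of the 6 members. Among genes that are no members but reach a mean of at least 10000 normalized counts, the median was -0.22 over 40 genes of chromosome 11 and 0.10 over 254 genes of other autosomes. With chromosome 11 centred within each library, the median of its members was 0.04, *Rps27a* had a log2 fold change of -0.06 (DESeq2 adjusted p = 0.917), and the difference from the other members was -0.03. The lower values of chromosome 11 genes as a whole and those of its ribosomal protein genes cannot be told apart here.

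**Figure D4:**
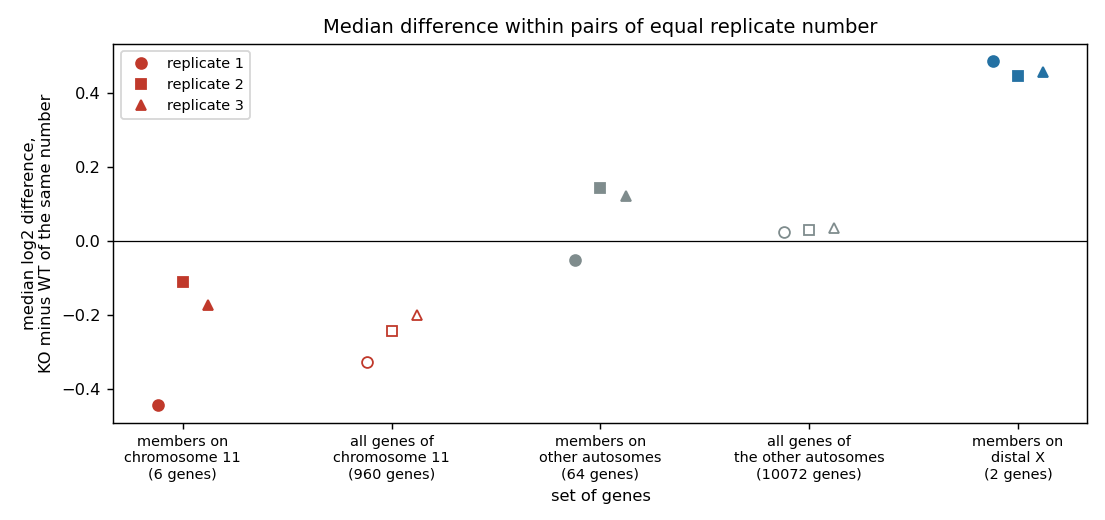
Median log2 difference between the KO and the WT library of the same replicate number for members (filled) and all genes (open) by location. Circles, squares and triangles are replicates 1, 2 and 3. Chromosome 11 members lie at -0.44, -0.11 and -0.17 and all chromosome 11 genes at -0.33, -0.24 and -0.20, while members on other autosomes change sign between pair 1 and the others.

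On X, both members past the start of *Pin4* at position 102119447, called distal X here from a boundary drawn on these data, rose in KO. *Rps4x* encodes a small subunit protein with a homologue on the Y chromosome in humans (chrX:102184941-102189394, minus strand). It was at 67403, 68353 and 72877 normalized counts in WT and at 91493, 88147 and 99536 in KO. The groups were well apart, and the mean in KO reached 134% of that in WT (log2 fold change 0.42, SE 0.09, DESeq2 adjusted p = 1.53e-04). *Rpl36a*, a large subunit protein at the tRNA exit site (chrX:134585654-134588062, plus strand), was at 34023, 36592 and 35177 in WT and at 49106, 52605 and 48382 in KO. Here too no library overlapped, and the log2 fold change was 0.50 (SE 0.09, DESeq2 adjusted p = 3.90e-07). Both passed in all 15 alternative fits, with the highest adjusted p at 0.0258 for *Rps4x* and 0.00942 for *Rpl36a*, both by edgeR. Together the pair made up 3.49% ± 0.329 of the WT member counts and 4.55% ± 0.279 of those in KO (SD, n = 3).

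The surrounding genes were measured alongside. Of the 235 genes tested on distal X, 41.7% were called higher in KO, and the median log2 fold change over 177 of them with a mean of at least 50 was 0.44. Proximal X had a median of 0.04 over 233 genes. Its member *Rpl10*, which joins the large subunit late in assembly, was at 52465, 44419 and 40924 in WT and at 48738, 50370 and 43564 in KO (log2 fold change 0.05, SE 0.11). *Rpl39*, the other proximal member, lies in the peptide tunnel. It was at 10661, 8226 and 28402 in WT and at 9552, 9277 and 10349 in KO. WT replicate 3 was above all other libraries, and the log2 fold change of -0.70 (SE 0.58, DESeq2 adjusted p = 0.651) became 0.04 without it.

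None of the 66 members on other autosomes passed the threshold, against 5.47% of all genes tested there, with 1 of them at an unadjusted p under 0.05. By edgeR and by limma-voom none passed either, and with the replicate block 3 were called higher, against 6.36% of the genes there. The median log2 fold change of the 64 with a mean of at least 50 was 0.07, and 59 of them had positive values. Over all genes of these chromosomes the median was 0.03, with 5801 of 10072 positive, and over the 254 genes there that are no members but reach a mean of at least 10000 it was 0.10, with 223 positive. The members' values thus lay near those of genes with like counts. The median within pairs was -0.05, 0.14 and 0.12, so the sign was not shared, and 47 of the 64 were lower in KO in pair 1 but 1 and 5 in the other pairs. Among the 63 of these with a mean of at least 10000, fold changes ran from -0.05 for *Rps15a* to 0.19 for *Rps2*, and the lowest adjusted p, 0.253, was that of *Rplp0*. For 62 of the 63 the 95% interval stayed within 1.5-fold.

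The stalk of the large subunit recruits translation factors and is built from *Rplp0*, *Rplp1* and *Rplp2* on a base of *Rpl12*. *Rplp0* was at 71800, 74773 and 71347 in WT and at 77473, 82317 and 86542 in KO, with no overlap and a log2 fold change of 0.18 (SE 0.09). Its adjusted p was 0.253 without and 0.00931 with the replicate block by DESeq2, and up to 0.591 over the alternatives. *Rpl12* was at 59377, 56238 and 60802 in WT and at 61745, 65566 and 66764 in KO (log2 fold change 0.14, SE 0.09). *Rplp1* and *Rplp2* had log2 fold changes of 0.13 (SE 0.11) and 0.13 (SE 0.14), with overlapping groups.

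*Rps2*, at the entry of the mRNA channel, was at 56708, 57911 and 45480 in WT and at 65288, 66597 and 50269 in KO. The groups overlapped through the low replicate 3 libraries, and each KO library was above the WT library of its number. The log2 fold change was 0.19 (SE 0.13), with a DESeq2 adjusted p of 0.543 without and 0.00194 with the block, and up to 0.930 over the alternatives. *Rps9*, which joins the small subunit early in assembly, was at 32229, 29085 and 36784 in WT and at 33558, 33859 and 41640 in KO. Its adjusted p was 0.615 without and 0.0317 with the block by DESeq2, and up to 0.938 over the alternatives, for a log2 fold change of 0.15 (SE 0.12).

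*Rpl5* and *Rpl11*, which bind 5S ribosomal RNA and hold back Mdm2 when ribosome assembly is disturbed, did not pass the threshold. *Rpl11* was at 26168, 24137 and 23074 in WT and at 24638, 26665 and 25832 in KO (log2 fold change 0.07, 95% interval -0.11 to 0.25). *Rpl5* was at 39473, 35662 and 29002 in WT and at 37121, 39552 and 31339 in KO (log2 fold change 0.05, 95% interval -0.20 to 0.31). Of 17 tested genes from a list of 18 ribosomal protein genes mutated in Diamond-Blackfan anaemia, a failure of red cell formation, none was called by DESeq2, edgeR or limma-voom, and none had an unadjusted p under 0.05. With 7.49% of all genes called, few calls would come from a list of this size. Their median log2 fold change was 0.08. The median was 0.09 over 31 small subunit members and 0.05 over 43 large subunit members.

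Members also differed between libraries of the same genotype. Among the 73 members with a mean of at least 10000, 42 were lower in replicate 3 than in the average of replicates 1 and 2 in both genotypes, and 20 were higher in both. *Rpl10a*, a large subunit protein, was lower in replicate 3 by 0.75 (WT) and 0.79 (KO) on the log2 scale, a change of the level between libraries and not between genotypes. It was at 32886, 35605 and 20292 in WT and at 33491, 37383 and 20409 in KO, and its log2 fold change was 0.04 (SE 0.30). Depth and structural RNA content moved with replicate 3 in both genotypes, and their part in these values was not tested.

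Of 2 ribosomal proteins examined whose genes carry other names, none passed the threshold in DESeq2, edgeR or limma-voom, and none had an unadjusted p under 0.05. DESeq2 called 7.49% of all genes tested, so a list of 2 would rarely hold a call. *Rack1*, a scaffold on the head of the small subunit listed under its older symbol *Gnb2l1*, lies on chromosome 11. It was at 74659, 71296 and 50162 in WT and at 57661, 60298 and 45742 in KO. Its log2 fold change was -0.26 (SE 0.15), with a DESeq2 adjusted p of 0.383 without and 1.99e-04 with the block, and between 1.99e-04 and 0.989 over the alternatives. With the block, 39.0% of the genes tested on chromosome 11 were called lower. *Fau*, which encodes a fusion of a ubiquitin-like protein with a small subunit protein, was at 19376, 20780 and 16979 in WT and at 20221, 22190 and 18662 in KO, with overlapping groups and a log2 fold change of 0.10 (SE 0.11).

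Of 7 paralogues with a mean of at least 50, 1 fell in KO and none rose, where 4.78% of all genes tested fell and 2.7% rose. *Rpl39l*, on chromosome 16, is a paralogue of *Rpl39* known from male germ cells. It was at 1759, 1388 and 958 normalized counts in WT and at 354, 306 and 145 in KO. The groups were far apart, and the log2 fold change was -2.34 (SE 0.44, DESeq2 adjusted p = 6.15e-06). It passed in all 15 alternative fits, with values between -2.59 and -2.06. *Rps27l* and *Rps4l*, the latter listed as *Rps4y2*, had log2 fold changes of 0.18 (SE 0.09, DESeq2 adjusted p = 0.239) and 0.19 (SE 0.13, adjusted p = 0.513). With the replicate block both were called higher, as were 6.68% of all genes, at adjusted p of 0.0184 and 0.00821, and over all alternatives the adjusted p reached 0.685 and 0.913. *Rpl36al*, *Rpl7l1*, *Rpl10l* and *Rpl22l1* had log2 fold changes of -0.07 (SE 0.10), -0.01 (SE 0.10), -0.12 (SE 0.11) and 0.02 (SE 0.15), with overlapping groups.

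**Figure D5:**
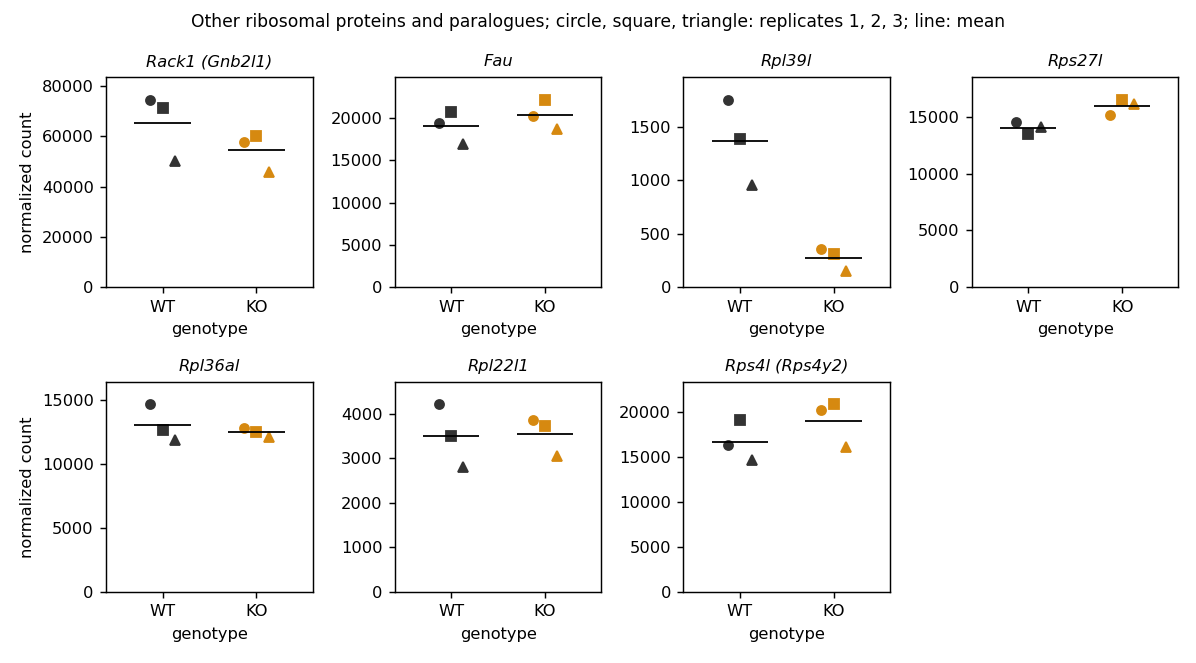
Normalized counts of ribosomal protein genes with other names and of paralogues in each library. Circles, squares and triangles are replicates 1, 2 and 3, lines are means, and axes start at 0. *Rpl39l* lies at 958 or more normalized counts in WT and at 354 or less in KO, while the other panels differ far less.

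Lists of genes that act before or beside the ribosome gave 4 calls in all, against 7.49% of all genes tested, and 3 of the 4 lie on chromosome 11 or distal X, where 20.2% of genes were called lower and 41.7% higher. Among 40 tested translation factors 1 rose, the initiation factor *Eif1ax* on distal X, at 5556, 7507 and 6623 in WT and at 10880, 12174 and 9395 in KO (log2 fold change 0.72, SE 0.13, DESeq2 adjusted p = 3.03e-06). Among 46 ribosome biogenesis genes 1 fell, *Pes1* on chromosome 11, which acts in large subunit assembly, with a log2 fold change of -0.30 (SE 0.10, DESeq2 adjusted p = 0.0478). The *Pes1* call held in 5 of 15 alternative fits and ended without WT replicate 1, WT replicate 2 or any 1 KO replicate, with adjusted p up to 0.943 over the alternatives. Among 14 genes of growth signalling to translation 2 fell. *Akt1*, a kinase upstream of mTORC1, was at 725, 690 and 643 in WT and at 428, 499 and 505 in KO (log2 fold change -0.54, SE 0.13, DESeq2 adjusted p = 0.00117). *Rptor*, a subunit of mTORC1 encoded on chromosome 11, had a log2 fold change of -0.36 (SE 0.12, DESeq2 adjusted p = 0.0388), a call that held in 8 of 15 alternative fits. The *Akt1* call was lost without KO replicate 1 (adjusted p = 0.0648) and that of *Rptor* without any single library except KO replicate 3. With the replicate block, 3 translation factors were called lower and 6 higher, 4 biogenesis genes lower and 4 higher, and 3 growth signalling genes lower, against 7.95% of all genes lower and 6.68% higher. With chromosome 11 centred, the log2 fold change was -0.03 for *Pes1* (DESeq2 adjusted p = 0.943) and -0.09 for *Rptor* (adjusted p = 0.875).

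Counting could mix members with their relatives. A median of 61.2% of the 50-base stretches of a member's main transcript was found in another annotated gene, and 51 of 77 members exceeded 50%. In the 64 members on other autosomes, the median log2 fold change was 0.08 in the 32 with less and 0.07 in the 32 with more shared sequence. The exons of 18 members, taken over all their annotated transcripts, overlapped an exon on the opposite strand. The use of strand in counting was not given in the sources used here. The 6 ribosomal protein pseudogene symbols in the files held between 47 and 432 counts per library.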

How the data were processed

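RNA-seq libraries of WT and *Patz1* KO E14 mESCs (3 each) were grouped by their sample titles. The deposited values were raw counts per gene symbol in 1 table per library, which the authors had made without normalization. Per the submitters' processing notes, TopHat2 2.1.1, Bowtie2 2.3.1.0, featureCounts 1.6.2 and genome build mm10 were used. The treatment of strand and of reads with several matches was not given in the sources used here. Total counts lay between 11040756 and 47721070, and the precision of the replicate 3 libraries was lower.

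Counts were tested with the Wald test of DESeq2 1.42.0 (R 4.3.3), with median-of-ratios size factors, genotype as the only term, all genes in 1 fit, Benjamini-Hochberg adjustment over all genes tested and an adjusted p threshold of 0.05. Fold changes were not shrunken. Confidence intervals are 95% and cover the spread between libraries. Alternatives were edgeR 4.0.16 (quasi-likelihood), limma 3.58.1 (voom), TMM size factors, a filter of 10 counts in 3 libraries, no independent filtering, a replicate block, size factors without chromosomes 11, X and Y, centring of chromosome 11, leaving out each library or both replicate 3 libraries, and a threshold of 0.01. Replicate numbers come from the titles. Deviations from the group mean correlated between same-numbered libraries at 0.47, 0.62 and 0.68 over 11524 genes, so the numbers were taken to pair them. Libraries of different numbers were not compared, and replicate 3 stood apart in both genotypes in depth and structural RNA. Whether the other libraries pair by number was thus not tested. All pairs of libraries differed by more than sampling noise.

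Positions came from GENCODE M21 (GRCm38), with 23054 of 23420 symbols placed, 1277 of them through older symbols. Start regions came from the RefSeq table of GRCm38.p6. Transcript lengths and shared sequence used the principal GENCODE transcript, the shortest where several ranked alike. The members and lists were chosen with earlier results of these data known. Named were *Patz1*, members on chromosome 11 and X, members past the threshold, the 5 highest and 5 lowest by fold change and by level per kilobase, members of the stalk and the 5S particle, other ribosomal proteins and paralogues, and up to 5 genes past the threshold per further list. *Rps9*, *Rps13* and *Rpl10a* were named for their values here or through the block. The result of 1 further gene is not reported here. In simulated counts with 200 genes changed by 1 on the log2 scale, DESeq2 recovered 91.5% of them, and 11.6% of its 207 calls were unchanged genes. With the replicate block it recovered 86.0%, and 13.1% of 198 calls were unchanged genes, both above the 5% that the threshold names. Whether these percentages hold for smaller fold changes, or for libraries paired by replicate number, was not tested.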

Additional observations from a re-analysis of the deposited data

How the results depend on the processing

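At this depth the log2 fold change of a member had a median SE of 0.10, and the 3 libraries per genotype limit what could be called. The cause of the changes given here was not tested. Over all genes, 1146 calls became 2131 with the replicate block, 719 at a threshold of 0.01 and between 583 and 1341 when 1 library was left out. The 3 called members became 7 with the block and 5 without both replicate 3 libraries, and the 2 on other chromosomes became 5 with the block. The calls over all genes without both replicate 3 libraries are not given here. The member counts of that fit therefore cannot be set against them. On chromosome 11 the 1 called member became 0 by edgeR, by limma-voom, with chromosome 11 centred and at 0.01, 2 with the block, 3 without both replicate 3 libraries (*Rpl19*, *Rpl23* and *Rps27a*), and between 0 and 2 when 1 library was left out, with 0 when WT replicate 1 or either of KO replicates 1 and 2 was missing and 2 without WT replicate 3. Beside the calls given with the results, the block changed no call of a named member. Without the structural RNAs the share of counts on members was 12.5% in WT and 12.7% in KO. Centring chromosome 11 turned the median of its members to 0.041, moved its difference from the other members to -0.034, and turned *Rpl19* to 0.025, *Rpl23* to 0.026, *Rpl23a* to 0.055, *Rpl27* to 0.18, *Rpl38* to 0.10 and *Gnb2l1* to 0.011. *Rpl32*, at -0.0014, turned to 0.0042 by limma-voom, 0.0020 with TMM size factors and 0.0043 with the block. *Rpl22l1* turned to -0.00091 with size factors without chromosomes 11, X and Y and to -0.021 without both replicate 3 libraries. Of the uncalled genes that changed sign when 1 library was left out, the log2 fold change ran from -0.029 to 0.16 for *Rpl10*, from -0.21 to 0.063 for *Rpl27*, from -1.01 to 0.039 for *Rpl39*, from -0.098 to 0.015 for *Rps15a*, from -0.16 to 0.12 for *Rpl13a*, from -0.11 to 0.075 for *Rpl6*, from -0.12 to 0.082 for *Rpl21*, from -0.066 to 0.091 for *Rpl32*, from -0.023 to 0.20 for *Rps20*, from -0.039 to 0.13 for *Rps29*, from -0.064 to 0.15 for *Rpl5*, from -0.064 to 0.072 for *Rpl7l1*, from -0.12 to 0.17 for *Rpl22l1* and from -0.13 to 0.022 for *Rpl36al*.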

Other observations

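The ribosome of mitochondria has its own set of proteins, encoded in the nucleus by the *Mrpl* and *Mrps* genes. All 76 of these were tested, and none was called between KO and WT by DESeq2, edgeR or limma-voom, while DESeq2 called 7.49% of all genes tested. At an unadjusted p under 0.05 there were 7. With the replicate block DESeq2 called 6 lower and 2 higher, against 7.95% and 6.68% of all genes. Their median log2 fold change was 0.01, and it was 0.04 without those on chromosome 11, which holds 10 of them, and on X. Of 8 proteins around the exit of the peptide tunnel or within it, *Rpl26* included, none of the 7 tested was called by DESeq2, edgeR or limma-voom or had an unadjusted p under 0.05, and 1 was called lower with the block. Of the 8, 3 lie on chromosome 11, where 39.0% of genes were called lower with the block.

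Of the 8 stem cell markers 1 rose in KO, where 2.7% of all genes tested did. This was *Dppa5a*, at 38552, 33925 and 32997 normalized counts in WT and at 44249, 47515 and 45195 in KO (log2 fold change 0.38, SE 0.09, DESeq2 adjusted p = 0.00223). With the block 4 of the 8 were called higher, and 6.68% of all genes. The call of *Dppa5a* was lost without WT replicate 2 (adjusted p = 0.0543) or KO replicate 2 (adjusted p = 0.0575). Of 6 trophoblast markers 2 fell in KO, where 4.78% of all genes tested did. *Krt8*, a keratin of simple epithelia, was at 722, 624 and 665 in WT and at 393, 439 and 447 in KO (log2 fold change -0.66, SE 0.13, DESeq2 adjusted p = 2.77e-05). *Cdx2*, a transcription factor of trophoblast, was at 117, 105 and 115 in WT and at 62.1, 73.5 and 68.7 in KO (log2 fold change -0.72, SE 0.24, DESeq2 adjusted p = 0.0350), and its call was lost without any 1 library, with adjusted p up to 0.291. *Gata3*, another transcription factor of trophoblast, chosen after its values were seen, had higher values in KO in each of the 3 pairs but overlapping groups, at 13.2, 24.0 and 46.5 in WT and at 51.4, 39.1 and 55.5 in KO (log2 fold change 0.94, SE 0.43, DESeq2 unadjusted p = 0.0298, adjusted p = 0.209). The 6 trophoblast markers summed to between 1385 and 1673 normalized counts in WT and between 1046 and 1245 in KO. The 6 neural markers, of which 2 had a mean of at least 50, summed to between 3828 and 4706 in WT and between 4014 and 5090 in KO. None of them was called by DESeq2, edgeR or limma-voom or had an unadjusted p under 0.05. The primitive endoderm markers summed to at most 145 normalized counts in a library and the fibroblast markers to at most 30.4, with 3 of the 6 fibroblast markers at or under 3 counts in every library. *Foxa2*, a primitive endoderm marker chosen after its values were seen, had 0 counts in each WT library and 22, 7 and 2 counts in KO, with a DESeq2 unadjusted p of 8.60e-04 and no adjusted p, since its mean lay under the independent filter. The part of these markers in the values of the ribosomal protein genes was not tested.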
